A study of Mus musculus with 12 samples.

Results

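The interaction of anti-CD3 and anti-LAIR-1 was measured as the difference between 2 effects of anti-LAIR-1, the effect in stimulated cells minus the effect in unstimulated cells. It used all 12 libraries of the series and every gene with enough reads, 9223 of the 14323 in the count table. The cells were splenic CD8+ T cells of a naïve phenotype (CD44- and with a TCRβ chain, among other sort markers), purified by sorting from 3 wild type mice (adult and on the C57BL/6N background by the study's methods), seeded at 100000 cells per well and kept for 6 h on coated plates before 3' end RNA sequencing by CEL-seq. Each mouse gave 1 library in each of 4 groups. The unstimulated isotype group received the isotype controls of both antibodies, and the unstimulated anti-LAIR-1 group received the agonistic LAIR-1 antibody 2C7 at 2.5 µg/ml with the isotype of anti-CD3. The anti-CD3 isotype group received 2.5 µg/ml anti-CD3 with 2.5 µg/ml of the LAIR-1 isotype, and the anti-CD3 anti-LAIR-1 group received both active antibodies. LAIR-1 was engaged by an immobilized antibody here and not by collagen, and no co-stimulating antibody is named for these wells.

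LAIR-1 is an inhibitory receptor of leukocytes that binds collagens. Its cytoplasmic tail carries inhibitory tyrosine motifs which, once phosphorylated, recruit the phosphatases SHP-1 and SHP-2 and the kinase Csk, and these act on the kinases that start T cell receptor signalling. Anti-CD3 crosslinks the CD3 chains of the T cell receptor complex. In naïve T cells this switches on cytokine, chemokine and growth genes, and it switches off a programme of quiescence and recirculation that includes the receptors for entering and leaving lymph nodes and the receptor for the survival cytokine IL-7. An interaction separates what anti-LAIR-1 does to resting cells from what it does to the response to anti-CD3. On the log2 scale used here, an interaction above 0 means that anti-LAIR-1 raised a gene more, or lowered it less, in the presence of anti-CD3 than in its absence.

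Library totals ranged from 1781218 to 7725545 counts, and the stimulated libraries were deeper, with group medians of 2304214 and 3548881 counts without anti-CD3 and of 4883760 and 6204054 counts with it. At these totals 3 counts correspond to between 0.388 and 1.68 CPM, counts scaled to library size. Mitochondrially encoded genes held 17.6 to 20.9% of the counts without anti-CD3 and 11.5 to 13.2% with it. The summed level of 5 T cell markers was 3137 to 3583 CPM in the unstimulated isotype libraries and 1702 to 1811 CPM in the anti-CD3 isotype libraries, whereas 4 CD4 T cell markers reached at most 4.84 CPM and 6 B cell markers at most 10.2 CPM in any library. Markers of myeloid cells summed to between 28.98 and 65.4 CPM, nearly all of it from Cst3, with Csf1r at 0 in 11 libraries, and NK cell markers to between 23.3 and 48.6 CPM, nearly all of it from Eomes. Red cell and platelet markers, mainly the globin Beta-s, ranged from 0 to 172 CPM and were highest in the libraries of mouse 2 in all 4 groups. Lair1 itself gave 6, 6 and 0 counts in the unstimulated isotype libraries, 2, 4 and 3 in the unstimulated anti-LAIR-1 libraries, 2, 7 and 6 with anti-CD3 and isotype, and 2, 2 and 0 with both antibodies. It was too low to be tested, and its share at this depth says nothing of the protein on the cells.

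Anti-LAIR-1 changed genes past the test in stimulated cells and not in unstimulated ones, and the difference between its 2 effects was tested as the interaction. The interaction passed the test for 218 genes, 2.36% of those tested, and it was lopsided, with 193 genes higher (2.09%) and 25 lower (0.271%). The higher genes included receptors and regulators of recirculating resting T cells, such as S1pr1, Il7r, Dgka and Rasa3, and genes of the actin cytoskeleton. The lower genes included the STAT5 target Cish and the chemokines Ccl3, Ccl4 and Xcl1. With anti-CD3 present, anti-LAIR-1 changed 518 genes (5.62%), of which 408 rose (4.42%) and 110 fell (1.19%); the count was 260 and 338 without the anti-CD3 isotype library of mouse 2 or 3 and 275 without the anti-CD3 anti-LAIR-1 library of mouse 3. Without anti-CD3 it changed 0 genes (0.0%) by edgeR's quasi-likelihood test, 510 genes had an unadjusted p under 0.05 there, and DESeq2 gave 0 genes with the mouse as a block and 1 without it. Over all genes the precision in the unstimulated cells was not much lower. The median half-width of the 95% interval of a gene's effect was 0.398 without and 0.346 with anti-CD3 on the log2 scale. Over the 218 interaction genes it was 0.238 without and 0.273 with anti-CD3. Genes with few counts in unstimulated cells, such as Cish and Ccl4, were measured less precisely there, as their intervals below show. RNA was measured per library, so that fewer cells of a type and less RNA per cell cannot be told apart.

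**Figure D1:**
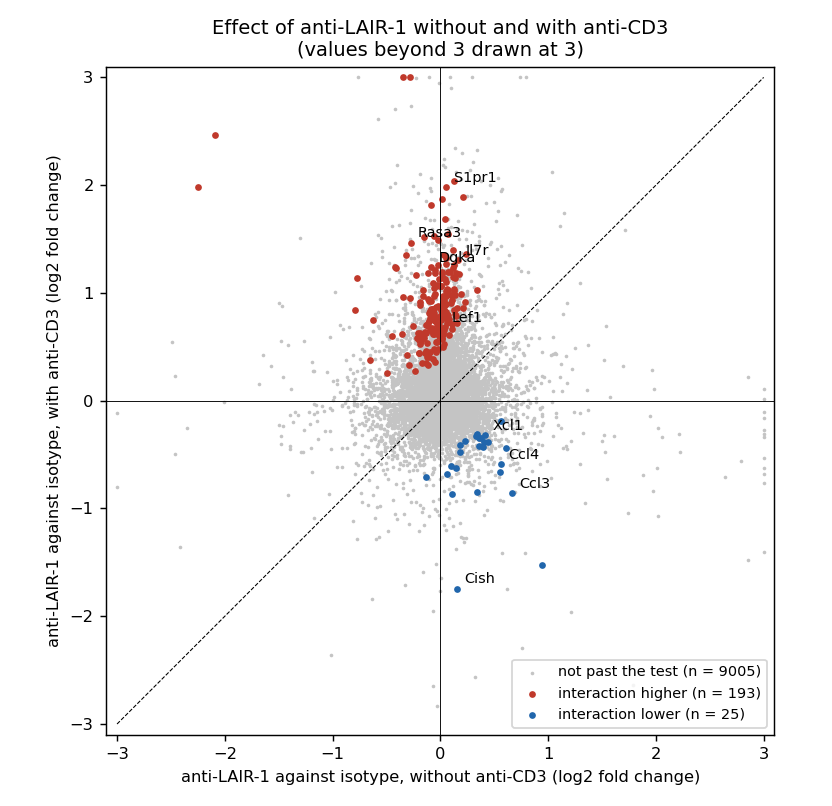
Log2 fold change of anti-LAIR-1 against isotype without anti-CD3 (horizontal axis) and with anti-CD3 (vertical axis), 1 point per gene, for the 9223 genes tested. The 193 genes with a higher interaction (red) lie in a column near 0 on the horizontal axis, apart from a few genes of low counts, and above 0 on the vertical axis, and the 25 with a lower interaction (blue) lie below 0 on the vertical axis and mostly to the right of 0.

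The interaction of the 193 higher genes ranged from 0.41 to 4.56 with a median of 0.85. Their median effect of anti-LAIR-1 was 0.84 with anti-CD3 and -0.040 without it, and 183 of them also passed the test for anti-LAIR-1 with anti-CD3, all upward. Among the 25 lower genes the median effect was -0.44 with and 0.35 without anti-CD3, and 18 passed the test with anti-CD3, all downward. The double difference within each mouse had the same sign in all 3 mice for 191 of the 193 higher genes and for all 25 lower genes; the choice of called genes favours such agreement. Leaving out 1 library lowered the count of 218 by more than 1.5 times in 4 cases, to 97 without the anti-CD3 anti-LAIR-1 library of mouse 3, 105 without the anti-CD3 isotype library of mouse 2, 121 without the unstimulated isotype library of mouse 2 and 123 without the unstimulated anti-LAIR-1 library of mouse 3. All 218 genes kept their direction in each of these fits. Thinning every library to the smallest total left 125 genes.

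Nearly all of the higher genes were genes that anti-CD3 lowered. With isotype, anti-CD3 lowered 188 of the 193 (36.0% of all genes tested fell and 35.3% rose), raised 3 and did not change 2 past the test. Their median change with anti-CD3 was -2.92 with isotype and -2.06 with anti-LAIR-1, and the median level kept under anti-CD3 was 13.3% of the unstimulated level with isotype and 24.1% with anti-LAIR-1. Of the 25 lower genes 21 rose with anti-CD3 under isotype, with a median level of 297% of the unstimulated one, against 150.4% with anti-LAIR-1. The interaction and the effect of anti-CD3 under isotype share 6 libraries, so that they are not independent. Genes were therefore also called in 2 mice and measured in the remaining mouse. The 91, 67 and 86 higher genes called without mouse 1, 2 and 3 had a median effect of anti-LAIR-1 of 0.64, 0.89 and 0.89 with anti-CD3 in the mouse left out, against 0.023, 0.018 and 0.017 without anti-CD3. In the same order their median change with anti-CD3 was -3.10, -3.23 and -2.81 with isotype and -2.54, -2.52 and -2.01 with anti-LAIR-1, their interaction was above 0 for 87, 62 and 84 genes, and 91, 66 and 84 of them fell with anti-CD3 in the mouse left out, beside 50.4 to 50.8% of all genes. The lower genes called in this way were few, 6, 11 and 7, and their median interaction in the mouse left out was -0.18, -0.36 and -0.15. Of these genes 4, 8 and 2 were higher with anti-CD3 under isotype there, with median changes of 1.15, 0.37 and -0.98, so that most of those called without mouse 3 were lower in that mouse.

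The effect of anti-LAIR-1 in stimulated cells grew with how far anti-CD3 lowers a gene. Genes with a mean of at least 20 counts were sorted by how anti-CD3 changed them in the 2 isotype groups of 2 mice, and both effects of anti-LAIR-1 were read in the remaining mouse; this sorting was chosen after other results were seen and carries no test. For genes lowered by over 4 on the log2 scale (51, 47 and 62 genes without mouse 1, 2 and 3), the median effect of anti-LAIR-1 with anti-CD3 was 0.82, 1.14 and 1.18. For genes lowered by 3 to 4 it was 0.74, 0.83 and 0.80, for those lowered by 2 to 3 0.43, 0.53 and 0.50, and for those lowered by 1 to 2 0.23, 0.23 and 0.25. The genes that changed by under 1 had medians of 0.017, 0.014 and 0.00054. The effect with anti-CD3 was thus ordered by depth of repression in each of the 3 mice. The median interaction was 0.67, 1.06 and 1.22 for genes lowered by over 4. It was 0.71, 0.83 and 0.81 for those lowered by 3 to 4, so that mouse 1 did not show this order between the 2 classes. Without anti-CD3 the medians of the same genes stayed between 0.014 and 0.088 in all 4 classes of lowered genes.

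Genes that anti-CD3 raised showed smaller values. Those raised by 3 to 4 had a median effect of anti-LAIR-1 with anti-CD3 of -0.10, -0.21 and -0.29 in the mouse left out (82, 82 and 97 genes), and their median rise with anti-CD3 was 3.17, 3.47 and 3.07 with isotype and 3.16, 3.17 and 2.81 with anti-LAIR-1. For these raised genes the median effect of anti-LAIR-1 without anti-CD3 was -0.18, -0.016 and -0.077. Their median interaction was -0.0013, -0.20 and -0.22, so that in mouse 1 it was close to 0. Genes lowered by 3 to 4 changed by -3.37, -3.52 and -3.12 with isotype and by -2.69, -2.65 and -2.36 with anti-LAIR-1. The medians of the raised genes were lower with anti-LAIR-1 in each mouse, and the gap was largest for genes raised by over 4, at 5.02, 5.14 and 5.00 with isotype and 4.48, 4.61 and 4.44 with anti-LAIR-1. Many of the latter start from few counts in unstimulated cells, where the effect of anti-LAIR-1 without anti-CD3 was also less steady, with medians of 0.27, 0.12 and 0.

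**Figure D2:**
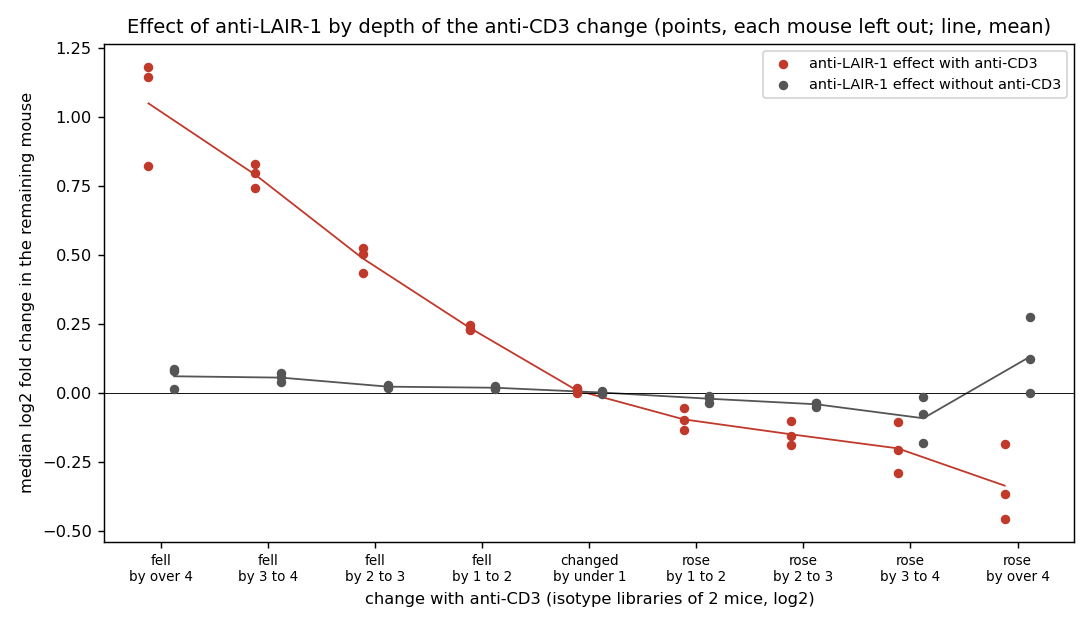
Median log2 fold change of anti-LAIR-1 in 1 mouse (vertical axis) for genes sorted by the log2 change that anti-CD3 caused under isotype in the other 2 mice (horizontal axis), with anti-CD3 (red) and without (grey); points are the 3 mice left out in turn and lines their mean. The red points fall from 0.82 to 1.18 for genes lowered by over 4 to about 0 for genes that changed by under 1. They lie below 0 for raised genes. The grey points stay near 0, except for genes raised by over 4. Another exception, at -0.18, is mouse 1 for genes raised by 3 to 4.

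Receptors for homing, egress and adhesion had the highest median interaction of the lists of gene function. All these lists were written by hand with earlier results of these data known. Several hold genes that the study names from the same libraries. The shares of called genes given for the lists are therefore not independent of these data. Of 31 genes listed 28 were tested, of which 11 had a higher and 0 a lower interaction (39.3%, beside 2.36% of all genes). The tested members had a median interaction of 0.61, against 0.042 over all genes. 24 of the 28 fell with anti-CD3 under isotype. S1pr1 (chr3:115710433-115715072, minus strand, mm10), the sphingosine-1-phosphate receptor that lets T cells leave lymph nodes, had the highest interaction among well-measured genes. It measured 1179, 1149.6 and 1085 CPM without anti-CD3 and with isotype, 1157, 1252 and 1141 CPM with anti-LAIR-1 alone, 28.7, 15.5 and 25.4 CPM with anti-CD3 and isotype, and 77.7, 94.96 and 99.8 CPM with both antibodies. Its 6 unstimulated values lay within a narrow band, all 3 values with both antibodies lay above the 3 with anti-CD3 and isotype, and neither came near the unstimulated level. Anti-LAIR-1 changed S1pr1 by 1.98 (95% interval 1.69 to 2.27) with anti-CD3 and by 0.056 (95% interval -0.16 to 0.27) without it, which gave an interaction of 1.92 ± 0.175 (SE, adjusted p = 3.87e-07) that passed under 24 of 24 alternative settings. The level kept under anti-CD3 was 2.04% with isotype against 7.67% with anti-LAIR-1. S1pr4, another receptor of the same lipid, kept 14.9% with isotype against 27.3% with anti-LAIR-1, with an interaction of 0.89 ± 0.155 (SE, adjusted p = 0.00153).

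The other members named here had smaller interactions than S1pr1. Selplg, which encodes the adhesion ligand PSGL-1, kept 8.03% with isotype against 15.01% with anti-LAIR-1 (interaction 0.90 ± 0.13, adjusted p = 0.000124). Cxcr4, a receptor for the chemokine CXCL12, kept 7.38% with isotype against 14.8% with anti-LAIR-1 (interaction 1.01 ± 0.205, adjusted p = 0.00592). The adhesion receptor gene Cd97 had a higher interaction, at 0.81 ± 0.171 (adjusted p = 0.00843). Cd55, whose product binds CD97 and protects cells from complement, had one of 1.68 ± 0.412 (adjusted p = 0.026). Cd55 is not a member of this list and is counted below with the Ly6, interferon-response and MHC class I genes. St3gal6, a sialyltransferase that helps to build adhesion ligands, had an interaction of 1.64 ± 0.425 (adjusted p = 0.0365) that passed under 11 of 23 settings, and Pecam1, an adhesion molecule, 0.91 ± 0.217 (adjusted p = 0.0207). Klf2, Itgb7 and Cd2 also passed the test.

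**Figure D3:**
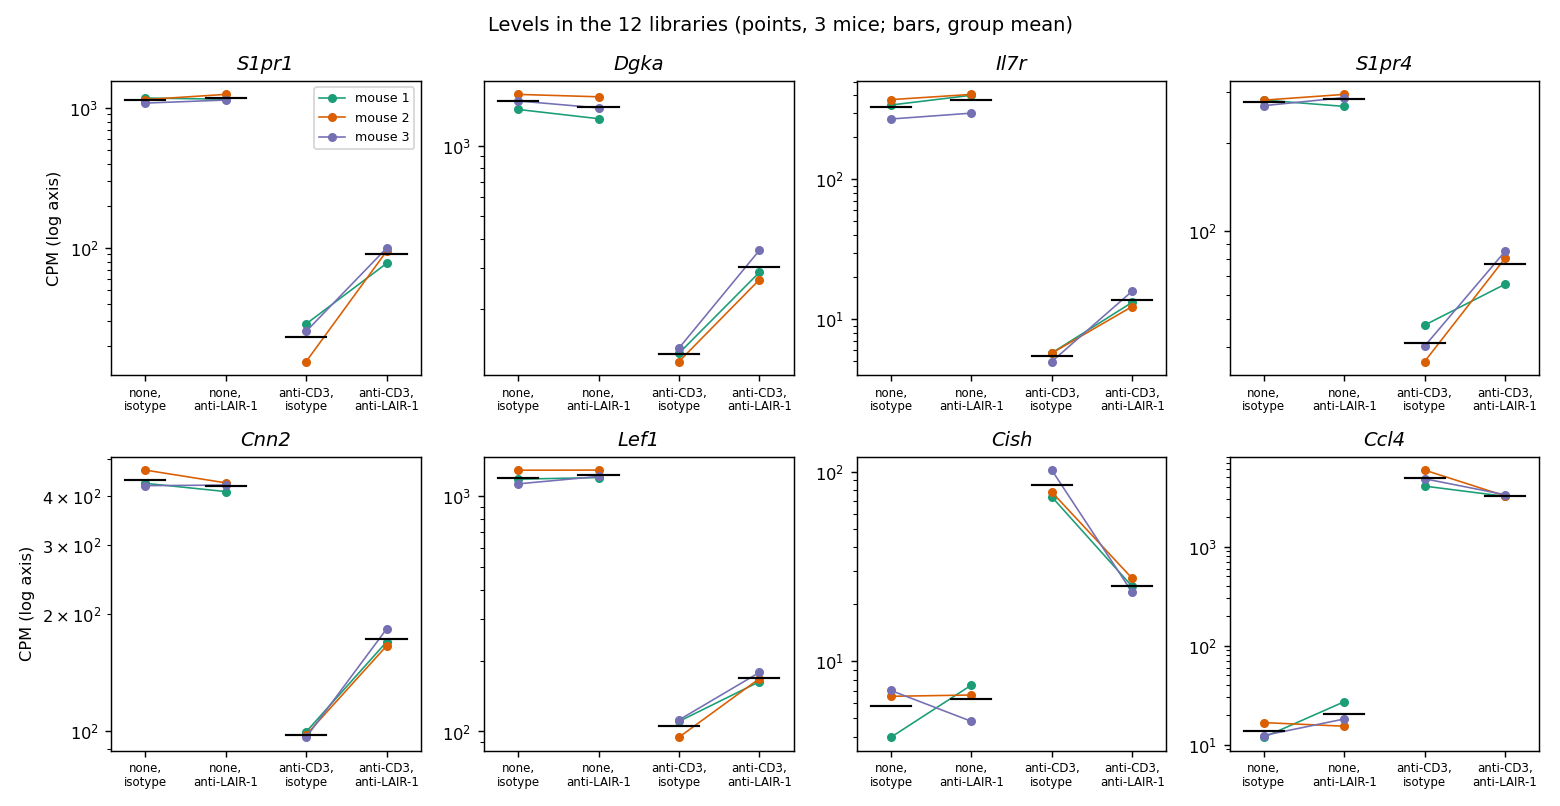
CPM (log axis) of 8 genes in the 12 libraries, by antibody group (horizontal axis), with 1 colour per mouse, lines joining the isotype and anti-LAIR-1 libraries of a mouse and black bars at the group means. In S1pr1, Dgka, Il7r, S1pr4, Cnn2 and Lef1 the lines rise from left to right in the stimulated pair, in Cish and Ccl4 they fall, and in the unstimulated pair the lines of most genes are nearly flat.

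The factors of naïve and memory T cells and of quiescence gave the next highest median of these lists. Of 31 genes listed 31 were tested, of which 10 had a higher and 0 a lower interaction (32.3%, beside 2.36% of all genes). The tested members had a median interaction of 0.41, against 0.042 over all genes. Il7r, the IL-7 receptor chain that sustains naïve T cells, measured 339.9, 371 and 270.1 CPM without anti-CD3 and with isotype, 399, 405 and 297 CPM with anti-LAIR-1 alone, 5.74, 5.72 and 4.99 CPM with anti-CD3 and isotype, and 13.2, 12.3 and 15.9 CPM with both antibodies. Among named genes with a mean of at least 20 counts it fell furthest, to 1.68% of the unstimulated level with isotype and 3.76% with anti-LAIR-1, with an interaction of 1.14 ± 0.223 (SE, adjusted p = 0.00404). Because these levels are so far apart, the scale matters: in CPM the double difference of Il7r was -51.8, -26.9 and -16.3 in the 3 mice, whereas that of Dgka was 282, 186 and 323. The transcription factor gene Lef1 had an interaction of 0.64 ± 0.118 (SE, adjusted p = 0.00244) and kept 8.84% with isotype against 13.8% with anti-LAIR-1. Slfn1, a schlafen gene tied to quiescence, had an interaction of 0.83 ± 0.143 (adjusted p = 0.00125) and Dapl1, a gene typical of naïve T cells, one of 1.03 ± 0.193 (adjusted p = 0.00264). Txnip, which restrains glucose uptake, had one of 0.71 ± 0.138 (adjusted p = 0.00376), and the transcription factor gene Myb one of 0.80 ± 0.176 (adjusted p = 0.0116). Myb kept 52.6% of its unstimulated level with isotype against 91.4% with anti-LAIR-1. Tcf7, Klf2, Tsc22d3 and Pik3ip1 completed the members past the test. Foxo1, a transcription factor that drives several of these genes, did not pass, with an interaction of 0.33 ± 0.131 (adjusted p = 0.251).

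On the linear scale the picture held for most but not all genes. Of the 193 higher genes 180 had a mean double difference of CPM above 0 and 110 had one above 0 in all 3 mice. For the 25 lower genes the counts were 25 and 24. This comparison was added after the data were seen. S1pr1, for example, had double differences of 71.1, -22.98 and 18.2 CPM, which are small beside its unstimulated level given above.

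Promoters were read for short elements of 4 transcription factor types, with RefSeq sequences of GRCm38.p6 (the mm10 assembly) available for 7033 of the genes tested. The 250 bases before the start were searched on both strands. The FOXO type core TGTTTAC was in 4.11% of the 146 higher genes with a sequence, 0.0% of the 16 lower genes and 2.5% of all promoters. The STAT type element TTCNNNGAA was in 8.9%, 12.5% and 7.15%, the AP-1 type element TGANTCA in 6.85%, 12.5% and 4.59%, and the MYC type E-box CACGTG in 8.9%, 18.8% and 10.8%. None of the shares among the 16 lower genes stands for more than 3 genes. A match is only a stretch of letters and was not tested as a binding site. As a ratio to the share of all promoters, the FOXO core was highest for the higher genes and the AP-1 type for the lower genes; as a difference in percentage points they were the AP-1 type and the MYC type. Of the 12 highest genes 8 had a sequence and 0 of these held the FOXO core, so Dapl1 and Txnip of the quiescence list are shown for it, chosen after their values were seen, and Agpat4 and Prpf4b, which were among the 12 lowest, for the AP-1 type. The capitals mark the element, and each sequence runs 5′ to 3′ on the plus strand, on which the gene lies, at chr2:59484403-59484652, chr3:96557707-96557956, chr17:12119034-12119283 and chr13:34875279-34875528. The element starts 164, 121, 140 and 111 bases before the start of the gene.
Dapl1: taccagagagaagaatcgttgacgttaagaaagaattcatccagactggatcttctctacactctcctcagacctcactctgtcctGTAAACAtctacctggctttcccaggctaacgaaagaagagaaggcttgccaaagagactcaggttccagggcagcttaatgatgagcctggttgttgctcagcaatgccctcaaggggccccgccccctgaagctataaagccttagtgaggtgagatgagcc
Txnip: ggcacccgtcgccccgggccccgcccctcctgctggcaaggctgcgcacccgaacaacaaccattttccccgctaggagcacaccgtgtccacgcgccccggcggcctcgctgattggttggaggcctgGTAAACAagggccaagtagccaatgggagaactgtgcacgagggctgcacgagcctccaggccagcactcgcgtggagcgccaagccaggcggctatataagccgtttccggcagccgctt
Agpat4: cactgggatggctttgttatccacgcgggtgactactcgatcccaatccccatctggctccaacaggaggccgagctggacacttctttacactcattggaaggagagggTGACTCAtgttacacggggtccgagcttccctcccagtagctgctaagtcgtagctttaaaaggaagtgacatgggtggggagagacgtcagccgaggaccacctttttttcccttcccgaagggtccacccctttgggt
Prpf4b: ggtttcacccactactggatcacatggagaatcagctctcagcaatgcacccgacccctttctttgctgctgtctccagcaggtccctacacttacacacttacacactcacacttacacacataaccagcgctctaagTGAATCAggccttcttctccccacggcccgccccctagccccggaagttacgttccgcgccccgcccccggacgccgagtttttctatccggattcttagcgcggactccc

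Dgka and Rasa3, which both restrain Ras signalling, had the largest interactions past the test in the diacylglycerol and MAPK list, whose median was close to that of all genes. Of 33 genes listed 26 were tested, of which 3 had a higher and 0 a lower interaction (11.5%, beside 2.36% of all genes). The tested members had a median interaction of 0.052, against 0.042 over all genes. Dgka encodes diacylglycerol kinase α, which removes the lipid that activates Ras and protein kinase C below the T cell receptor. It measured 1426, 1653 and 1550.2 CPM without anti-CD3 and with isotype, 1302, 1615 and 1448 CPM with anti-LAIR-1 alone, 129.7, 119.5 and 136 CPM with anti-CD3 and isotype, and 287, 267 and 357 CPM with both antibodies. The stimulated groups were well apart, and the unstimulated values with anti-LAIR-1 were slightly lower in each mouse. Anti-LAIR-1 changed Dgka by 1.24 (95% interval 1.04 to 1.44) with anti-CD3 and by -0.086 (95% interval -0.27 to 0.096) without it. The interaction of 1.32 ± 0.13 (SE, adjusted p = 8.99e-07) passed under 24 of 24 settings. Rasa3 (interaction 1.74 ± 0.245, adjusted p = 9.20e-05) and Rasal3 (0.67 ± 0.169, adjusted p = 0.0295) both encode GTPase-activating proteins that switch Ras family proteins off. Rasa3 kept 3.79% with isotype against 12.7% with anti-LAIR-1.

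The T cell receptor complex and its nearest signalling proteins gave smaller values. Of 41 genes listed 33 were tested, of which 3 had a higher and 1 a lower interaction (12.1%, beside 2.36% of all genes). The tested members had a median interaction of 0.27, against 0.042 over all genes. Cd3g, a CD3 chain, measured 744, 861 and 659 CPM without anti-CD3 and with isotype, 705, 760.0 and 751 CPM with anti-LAIR-1 alone, 347, 345 and 369 CPM with anti-CD3 and isotype, and 473, 541 and 537 CPM with both antibodies. It kept 46.9% with isotype against 69.95% with anti-LAIR-1 (interaction 0.57 ± 0.119, adjusted p = 0.00692), and Cd3e, the chain that anti-CD3 binds, kept 60.96% with isotype against 86.4% with anti-LAIR-1 (0.50 ± 0.11, adjusted p = 0.0115). Skap1, an adaptor that links the receptor to integrins, had an interaction of 0.84 ± 0.167 (adjusted p = 0.00479). Cd28, the main co-stimulatory receptor, stood at 96.6% of the unstimulated level with anti-CD3 and isotype and at 133% with both antibodies (interaction 0.46 ± 0.12, adjusted p = 0.0378), and passed under 11 of 24 settings.

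Among 24 inhibitory receptors and LAIR-1 signalling genes tested 1 passed (4.17%, beside 2.36% of all genes), Csk, the kinase that inactivates Lck, at 0.53 ± 0.132 (adjusted p = 0.0283). It stood at 68.1% of the unstimulated level with anti-CD3 and isotype and at 98.1% with both antibodies. The best measured other members were Ptpn22, a phosphatase acting on Lck, with -0.087 ± 0.12 (adjusted p = 0.842), and the adaptor gene Sh2d2a with 0.018 ± 0.13 (adjusted p = 0.974). In the PI3K, AKT and mTOR list 2 of 31 passed (6.45%). Pik3ip1, which inhibits PI3K, had an interaction of 1.03 ± 0.277 (adjusted p = 0.0441) and passed under 9 of 23 settings. The kinase gene Akt1 had one of 0.51 ± 0.126 (adjusted p = 0.0261), with effects of anti-LAIR-1 of 0.28 with and -0.24 without anti-CD3, and passed under 10 of 24 settings.

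The actin cytoskeleton list held as many called genes as the quiescence list. Of 59 genes listed 54 were tested, of which 10 had a higher and 0 a lower interaction (18.5%, beside 2.36% of all genes). The tested members had a median interaction of 0.30, against 0.042 over all genes. The median change of its members with anti-CD3 was -0.95 with isotype and -0.54 with anti-LAIR-1. Cnn2 encodes calponin 2, an actin-binding protein, and measured 432, 467 and 426 CPM without anti-CD3 and with isotype, 411, 433 and 427 CPM with anti-LAIR-1 alone, 99.5, 97.7 and 96.3 CPM with anti-CD3 and isotype, and 169, 165 and 183 CPM with both antibodies. The stimulated groups were separate with little spread inside each, and Cnn2 had an interaction of 0.88 ± 0.118 (SE, adjusted p = 6.69e-05). S100a10, the partner of annexin A2, had an interaction of 1.13 ± 0.168 (SE, adjusted p = 0.000194) and kept 11.97% with isotype against 26.6% with anti-LAIR-1. Tmsb10, which binds actin monomers and was the most abundant of the 193 higher genes, kept 20.2% with isotype against 32.5% with anti-LAIR-1 (interaction 0.69 ± 0.111, adjusted p = 0.000636). Arhgdib, which holds small GTPases inactive (0.75 ± 0.117, adjusted p = 0.000433), Lsp1, which binds actin filaments (0.92 ± 0.154, adjusted p = 0.00105), and Coro1a, which encodes coronin 1A (0.66 ± 0.113, adjusted p = 0.00118), had similar values. All 6 of these genes passed under every alternative setting. Myh9, Crip1, S100a11 and Anxa7 also passed the test.

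Ly6, interferon-response and MHC class I genes followed. Of 50 genes listed 39 were tested, of which 6 had a higher and 0 a lower interaction (15.4%, beside 2.36% of all genes). The 6 were Cnp, Shisa5, Cd55, Samhd1, Psmb8 and Ifi27l2a. No Ly6 family gene and no MHC class I heavy chain gene was among them. The tested members had a median interaction of 0.37, against 0.042 over all genes. The median effect of anti-LAIR-1 over the list was 0.34 with anti-CD3 and 0.0005 without it. Cnp, a nucleotide phosphodiesterase, kept 3.97% with isotype against 14.7% with anti-LAIR-1 and had an interaction of 1.90 ± 0.227 (SE, adjusted p = 2.23e-05). Shisa5 measured 1819.7, 1991 and 1916 CPM without anti-CD3 and with isotype, 1878, 1924 and 1947 CPM with anti-LAIR-1 alone, 459.8, 416 and 464 CPM with anti-CD3 and isotype, and 704, 734 and 809 CPM with both antibodies. The stimulated groups did not overlap, and the effect of anti-LAIR-1 without anti-CD3 was 0.0054 (95% interval -0.14 to 0.15). This gave an interaction of 0.74 ± 0.103 (SE, adjusted p = 8.08e-05). Samhd1, which breaks down deoxynucleotides, had an interaction of 0.57 ± 0.148 (adjusted p = 0.0382), the immunoproteasome subunit gene Psmb8 0.58 ± 0.154 (adjusted p = 0.0408) and Ifi27l2a 0.82 ± 0.218 (adjusted p = 0.0433); each of the 3 passed under fewer than 12 settings.

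Only 5 of the 193 higher genes were not lowered by anti-CD3 past the test. Among them were Itm2a, a membrane protein of activated T cells (interaction 0.59), Cltb, a clathrin light chain (0.75), Akt1 and Cd28, and they were picked out after their values were seen. Itm2a rose with anti-CD3 by 1.95 with isotype and by 2.54 with anti-LAIR-1, and Cltb by 1.01 and 1.77.

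The remaining genes among the 12 highest interactions had lower counts and wider errors. Smpdl3a, a phosphodiesterase of the acid sphingomyelinase family, had an interaction of 1.92 ± 0.427 (adjusted p = 0.0126) and kept 3.18% with isotype against 11.5% with anti-LAIR-1. Cdc25b, a phosphatase that activates cyclin-dependent kinases, had one of 1.67 ± 0.298 (adjusted p = 0.00189), and Jakmip1 one of 1.68 ± 0.327 (adjusted p = 0.00399). H2-DMa, part of the machinery that loads peptides onto MHC class II, had one of 1.67 ± 0.377 (adjusted p = 0.0141). Gm11346 stood at 1.86 ± 0.437 (adjusted p = 0.0189). In 2310067B10Rik (1.91 ± 0.369, adjusted p = 0.00374) and the glycosylation gene Alg12 (1.64 ± 0.382, adjusted p = 0.0178) part of the value came from a lower level with anti-LAIR-1 in unstimulated cells, where the effects were -0.77 and -0.79. 5 called genes averaged under 20 counts per library. Their interactions ranged from -2.46 to 4.56 and 4 were higher; Ramp1, Plekhm3 and Zscan25 had the lowest p-values, and they passed under 11, 8 and 7 of 20 or 21 settings.

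**Figure D4:**
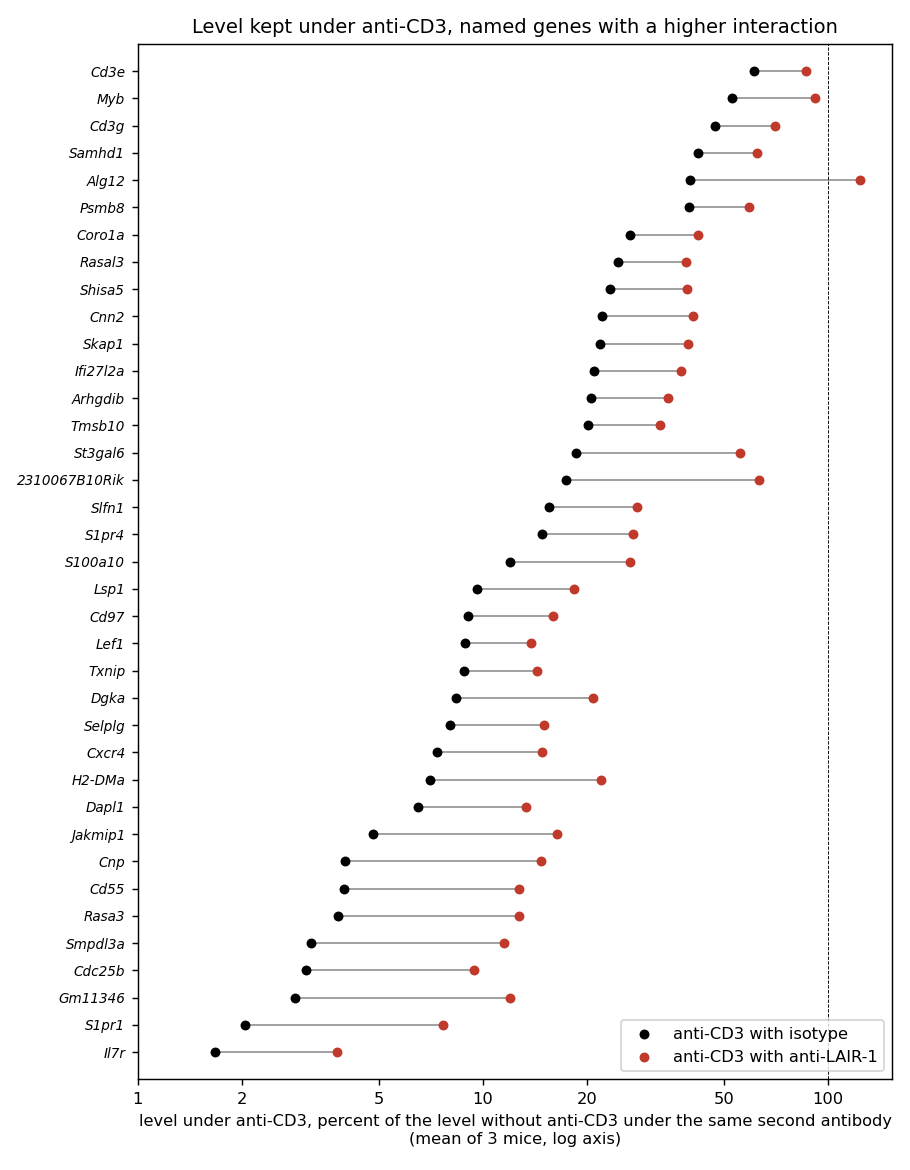
Level under anti-CD3 of genes with a higher interaction, from the 12 highest and the homing, quiescence, receptor, diacylglycerol, cytoskeleton and Ly6 lists and below 100% with isotype, as a percent of the level without anti-CD3 under the same second antibody (log axis, mean of 3 mice), with isotype (black) and with anti-LAIR-1 (red). Every red point lies to the right of its black point, as the choice of genes fixes, for example at 2.04% and 7.67% in S1pr1, and Alg12 is the only gene drawn that exceeds 100% with anti-LAIR-1.

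The clearest lower interaction was that of Cish, which encodes a SOCS family protein induced by STAT5 that damps cytokine and T cell receptor signalling. Cish measured 3.97, 6.53 and 7.01 CPM without anti-CD3 and with isotype, 7.48, 6.63 and 4.82 CPM with anti-LAIR-1 alone, 73.8, 78.2 and 102 CPM with anti-CD3 and isotype, and 24.8, 27.4 and 23.1 CPM with both antibodies. Anti-CD3 raised it in every mouse, and the 3 values with both antibodies lay far below the 3 with anti-CD3 and isotype. The effect of anti-LAIR-1 was -1.74 (95% interval -2.05 to -1.44) with anti-CD3 and 0.15 (95% interval -0.49 to 0.80) without it, which gave an interaction of -1.90 ± 0.342 (SE, adjusted p = 0.00212) that passed under 23 of 24 settings. Cish was 1 of 3 genes past the test among 37 cytokine receptor and JAK-STAT feedback genes (8.11%, beside 2.36% of all genes). Another was Il7r, which was higher, and the median interaction of that list was -0.0065. Bcl2l1, which encodes the survival protein BCL-XL, had a lower interaction of -1.19 ± 0.324 (adjusted p = 0.048) but passed under only 10 of 24 settings. Bcl2l1 was the only one of 22 BCL2 family and death genes past the test (4.55%).

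Effector genes had the lowest median of any list. Of 29 genes listed 17 were tested, of which 0 had a higher and 3 a lower interaction (17.6%, beside 2.36% of all genes). The tested members had a median interaction of -1.15, against 0.042 over all genes. 2 had an interaction above 0 and 15 below it. 8 of the 17 had at most 3 counts over an unstimulated group, so that their fitted values depend on the prior count, and the median of the other 9 was -0.70. The 3 genes past the test were all chemokines. Ccl4, a chemokine that attracts monocytes and T cells, measured 11.9, 16.7 and 12.4 CPM without anti-CD3 and with isotype, 27.2, 15.4 and 18.2 CPM with anti-LAIR-1 alone, 4066, 5902 and 4825 CPM with anti-CD3 and isotype, and 3208, 3242 and 3333 CPM with both antibodies. The rise with anti-CD3 was very large in both arms, and the values with both antibodies were lower in 3 of 3 mice. Its effect of anti-LAIR-1 was -0.59 (95% interval -0.80 to -0.37) with anti-CD3 and 0.57 (95% interval 0.11 to 1.02) without it (interaction -1.15 ± 0.243, adjusted p = 0.00863), 2 values of similar size and opposite sign. Mouse 2 did not share the rise without anti-CD3. The interaction passed under 20 of 24 settings, and not when either unstimulated library of mouse 1 was left out. Ccl3, a closely related chemokine, had effects of -0.86 and 0.67 (interaction -1.53 ± 0.335, adjusted p = 0.0115), the latter from 17, 15 and 8 counts in the unstimulated isotype libraries and 42, 16 and 38 with anti-LAIR-1 alone. The interaction of Ccl3 passed under 18 of 23 settings. Xcl1, which attracts cross-presenting dendritic cells, had an interaction of -0.74 ± 0.137 (adjusted p = 0.00259) with effects of -0.32 with and 0.42 without anti-CD3. Without anti-CD3 it had 208, 174 and 116 counts with isotype and 374, 267 and 360 with anti-LAIR-1. The library totals of mouse 2 there were 2304214 and 3589194, so that mouse 2 did not share the rise. The interaction of Xcl1 passed under 22 of 24 settings, and not when mouse 1 or mouse 3 was left out.

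Gzmb, which encodes the cytotoxic protease granzyme B, shows the limit of the comparison for genes that are off in resting cells. It had 136, 144 and 328 counts with anti-CD3 and isotype and 61, 39 and 22 with both antibodies, a large fall in each mouse. The unstimulated libraries held 1, 0 and 0 counts with isotype and 4, 1 and 1 with anti-LAIR-1, too few for an effect of anti-LAIR-1 there. The interaction did not pass by edgeR (adjusted p = 0.0734) but did by DESeq2 with the mouse as a block (adjusted p = 0.0389) and by edgeR with no filter on low counts (adjusted p = 0.0138), and under no other of 22 settings. Ifng, which encodes interferon-γ, likewise had at most 1 count in any unstimulated library.

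The other lower genes were of mixed function. Hnrpll, a splicing regulator of the CD45 transcript, had an interaction of -1.05 ± 0.235 (adjusted p = 0.0128), with effects of -0.44 with and 0.61 without anti-CD3. Rbmx2, a splicing factor, had one of -1.21 ± 0.286 (adjusted p = 0.0189) and the splicing kinase gene Prpf4b one of -0.78 ± 0.2 (adjusted p = 0.0365). Values between -0.97 and -0.79 were found for Agpat4, an enzyme of phospholipid synthesis, Utp23, a ribosomal RNA processing factor, Pfas, an enzyme of purine synthesis, and Ube3a, a ubiquitin ligase, with adjusted p-values of 0.0326, 0.0337, 0.0447 and 0.0117. Pfas passed under 7 of 24, Agpat4 under 10 of 24 and Utp23 under 11 of 24 settings, and DESeq2 with the mouse as a block did not call Pfas and Agpat4. The mitochondrial ribosomal RNA mt-Rnr1 had one of -0.77 ± 0.183 (adjusted p = 0.0213) but did not pass by DESeq2 (adjusted p = 0.3 with the block and 0.266 without it), while the abundant mitochondrial messenger RNAs did not pass, mtCytb at 0.08 ± 0.0917 (adjusted p = 0.797) and mtAtp6 at 0.18 ± 0.0841 (adjusted p = 0.352). The count of lower genes was the less stable one. It was 8 without the anti-CD3 anti-LAIR-1 library of mouse 3, 10 without the unstimulated anti-LAIR-1 library of mouse 3, 13 without the anti-CD3 isotype library of mouse 2 and 14 without that of mouse 3, and it was 15 and 16 without the unstimulated isotype libraries of mouse 1 and 2 and 16 without the unstimulated anti-LAIR-1 library of mouse 1.

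Unlike the effector list, of which 3 of 17 passed (17.6%), other lists of genes that anti-CD3 switches on had counts near the 2.36% of all genes. Of 65 ribosome biogenesis and nucleolar genes tested 0 passed, although all 65 rose with anti-CD3 under isotype. Their median interaction was -0.11, their median rise with anti-CD3 was 2.36 with isotype and 2.24 with anti-LAIR-1, and Npm1 and Ncl, which encode nucleolar proteins, had interactions of -0.14 ± 0.0936 and -0.21 ± 0.129 (adjusted p = 0.604 and 0.544). In stimulated cells anti-LAIR-1 lowered 6 of the 65 ribosome biogenesis genes past the test and raised 0. Over all genes tested it lowered 1.19% and raised 4.42%. Of 49 genes of growth metabolism and nutrient transport 0 passed for the interaction and 38 rose with anti-CD3. Shmt2, of one-carbon metabolism, had an interaction of 0.17 ± 0.14 (adjusted p = 0.691) and Ldha, lactate dehydrogenase, 0.092 ± 0.108 (adjusted p = 0.803). Of 38 activation receptors and early response factors 1 passed (2.63%), Cd28, and the median was -0.13. Tnfrsf9, which encodes the co-stimulatory receptor 4-1BB, had -0.22 ± 0.172 (adjusted p = 0.66) and Nfkb1 -0.23 ± 0.129 (adjusted p = 0.503). From the list of BCL2 family and death genes, Mcl1 (0.052 ± 0.111, adjusted p = 0.905) and Cdkn1a (-0.37 ± 0.215, adjusted p = 0.508) did not pass either. A missed threshold does not show that anti-LAIR-1 acted alike in both states, since the median half-width of the 95% interval of an interaction was 0.536.

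GIMAP GTPases, which maintain resting lymphocytes, fell with anti-CD3 in 7 of 8 genes, and 0 passed the test for the interaction, beside 2.36% of all genes, which is less than 1 gene in a list of this size. Their median interaction was 0.21, and the best measured members were Gimap3 at 0.17 ± 0.132 (adjusted p = 0.66) and Gimap4 at 0.33 ± 0.128 (adjusted p = 0.225). Of 79 cytosolic ribosomal protein genes 0 passed, with a median of 0.0826. The 16 lists hold 53 of the 218 interaction genes, and the other 165 are in none of them.

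**Figure D5:**
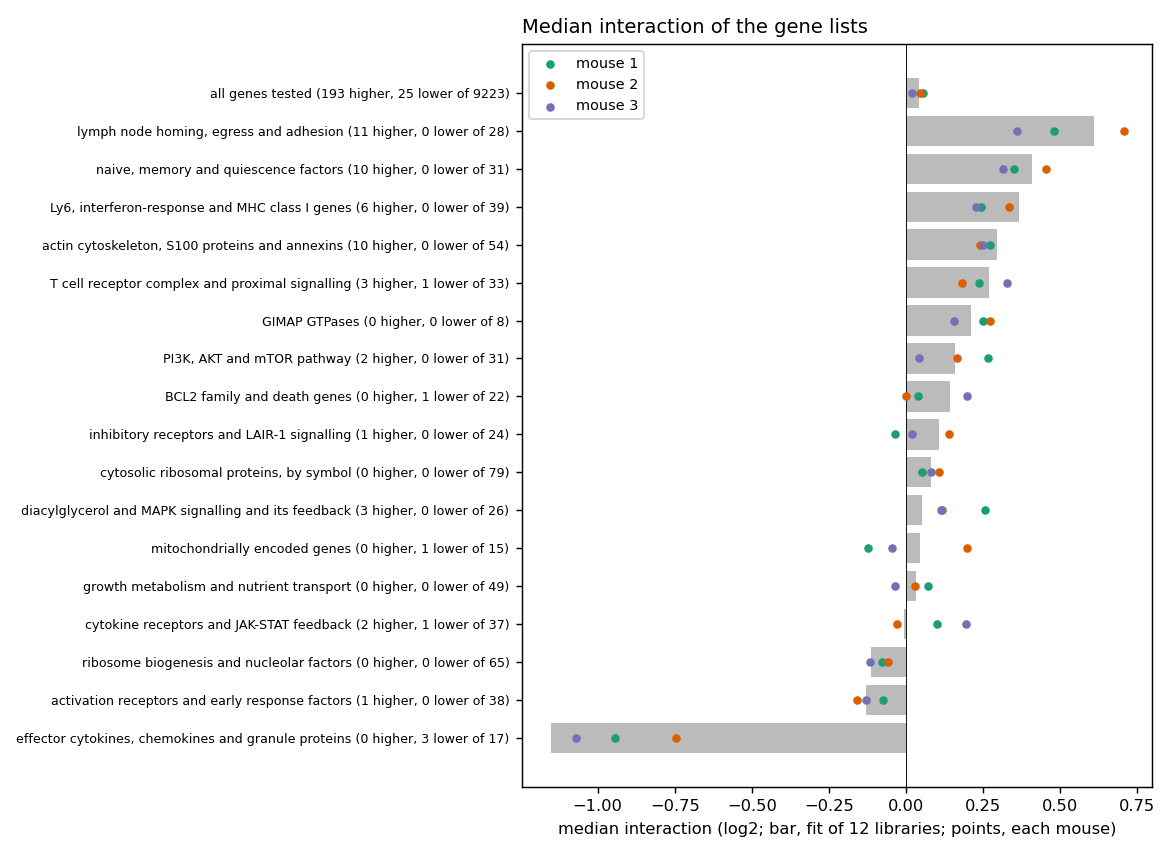
Median interaction (log2, horizontal axis) of the tested members of each gene list, with bars for the fit of all 12 libraries and points for each mouse, and beside each name the number of members past the test in either direction. Homing and quiescence lists lie at 0.61 and 0.41, above the 0.04 of all genes, and the effector list lies at -1.15, with several members near 0 counts in unstimulated cells.

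The study names 21 genes from its comparison of anti-LAIR-1 with isotype under anti-CD3, which is not the interaction. For that comparison 15 of the 21 passed the test here, 10 higher and 5 lower, beside 5.62% of all genes. For the interaction 11 of them passed, 9 higher and 2 lower (52.4%, beside 2.36% of all genes). This list was picked on the stimulated libraries used here and is not independent of them. Lpxn, a paxillin relative, had an interaction of 0.65 ± 0.189 (adjusted p = 0.0711), Zfp36l2, an RNA-binding protein that destabilises messenger RNAs, 0.41 ± 0.127 (adjusted p = 0.0962), and Lad1 -0.66 ± 0.23 (adjusted p = 0.162). The transcription regulators Lyar (-0.40 ± 0.156, adjusted p = 0.235), Ybx1 (-0.13 ± 0.123, adjusted p = 0.751), Ybx3 (-0.0889 ± 0.164, adjusted p = 0.892) and Atf4 (-0.0884 ± 0.134, adjusted p = 0.862) and the ubiquitin-conjugating enzyme gene Ube2b (0.15 ± 0.112, adjusted p = 0.662) did not pass. The effects of anti-LAIR-1 on Lyar were -0.39 (95% interval -0.58 to -0.21) with anti-CD3 and 0.0103 without it. A missed threshold for the interaction is not one for the study's comparison.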

How the data were processed

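The authors deposited a table of raw read counts per gene symbol for 12 libraries (CEL-seq, NextSeq 500). They aligned read 2 to the mm10 transcriptome with BWA MEM, discarded reads mapping to several places and counted with MapAndGo; collapsing by molecular identifier is not given in the sources used here, so limits drawn from counts cover counting error only. Counts were analysed with edgeR 4.0.16 in R 4.3.3: filterByExpr, TMM, the quasi-likelihood F-test with 4 group means and the mouse as a block, and Benjamini-Hochberg adjustment over the 9223 genes tested at 0.05. The study used DESeq2, run here as an alternative (1.42.0), and left out genes that are not protein coding, kept here. The labels give each group mouse 1 to 3. Deviations from the group mean correlated with a mean r of 0.043 (-0.0068 to 0.088) for libraries of the same mouse and -0.022 for different mice. Since the deviations within a group sum to 0, the value for different mice largely follows from the other. With 3 against 3 samples no exact test of a single gene was used. Libraries of a group differed beyond sampling noise (chi-square per degree of freedom 3.82 to 5.70).

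CPM are TMM-scaled; values within a mouse used log2 CPM with a prior count of 2. Symbols were matched to GENCODE M21 or RefSeq for 14275 of 14323. Genes named are the 12 highest and 12 lowest called interactions with at least 20 mean counts and 1 sign in 3 mice, up to 6 called members of each list (the 2 most abundant where fewer than 2 were called) and genes the study names; a few of them are not reported here. The gene lists and rules were chosen with earlier results of these data known. The fit was tested on simulated data. Alternatives were other normalizations and filters, no replicate block, DESeq2, thinning to the smallest library, protein-coding genes only, the 6 libraries of a comparison, each library or mouse left out, and a prior count of 0.5.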

Additional observations from a re-analysis of the deposited data

Results flagged for a closer look

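For 218 genes, what anti-LAIR-1 did depended on whether the cells were stimulated, by the test of the interaction itself. For 58 of these genes anti-LAIR-1 moved expression one way in all 3 mice with anti-CD3 and the opposite way in all 3 mice without it, 46 of them up and 12 of them down with anti-CD3. Since these genes were picked by the interaction, opposite signs are favoured by the choice. The same count was not made over all genes tested. Without anti-CD3, 0 of the effects passed the test on their own. Some of them were close to 0, as in Fxyd5 at -0.0015, -0.00021 and -0.071 in the 3 mice. Others were larger, as in Mink1 at -0.74, -0.57 and -0.59. The lowest adjusted p among the 58 was that of Dgka, with effects of 1.24 and -0.086. Among the 12, Ube3a (-0.38 and 0.40) had the lowest. No group had more than 3 libraries, so no library was tested for standing apart from its group.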

How the results depend on the processing

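All 218 interaction genes that an alternative could test kept their direction under every alternative fit, all on the log2 scale. The count was 191 with no replicate block (187 of the 218 shared), so that the pairing by mouse changed no count of calls by more than 1.5 times, and 215 by DESeq2 with the block and 242 without it. Scaling by DESeq2 size factors, upper quartile or library totals alone gave 221 genes each. Thinning to the smallest library gave 125 interaction genes (106 higher) and 287 genes for anti-LAIR-1 with anti-CD3, from less depth by construction. With no filter on low counts 55 genes were lower. Leaving out each library or mouse gave 78 to 217 interaction genes, 67 to 191 higher and 6 to 28 lower. For anti-LAIR-1 with anti-CD3 it gave 260 to 554 genes. Anti-LAIR-1 without anti-CD3 gave 0 to 2 genes when libraries or mice were left out, 9 with no filter, 1 after thinning and 1 by DESeq2 with no replicate block; the cause was not tested. On the CPM scale 110 of the 193 higher genes were above 0 in all 3 mice, a comparison chosen after seeing the data. Of 61 named interaction genes 16 passed under every alternative, 31 under at least 20 and 14 under fewer than 12, and 3 of the 24 named genes that did not pass did so under some alternative. Depth limits genes that are off in unstimulated cells, where 3 counts are 0.388 to 1.68 CPM.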
